A study of Mus musculus with 12 samples.

Results

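The genes described here are 34 of the 16821 genes listed in the liver expression files. They belong to, or work with, the enzyme families known for putting acetyl groups on lysine residues or taking them off. Some act mainly on other acyl groups or other molecules, and Nampt supplies the NAD+ the sirtuins use. The 34 genes were chosen by symbol from the textbook families, not by their measured values, but with earlier results of these data known. The list held 7 sirtuins, 4 class I histone deacetylases, 4 class IIa, 3 of classes IIb and IV, and 12 acetyltransferases. A further group of 4 was made up of Nat10, Elp3, Bloc1s1 and Nampt. RNA sequencing was performed on whole liver tissue of 12 male C57BL/6J mice, bought at 8 weeks of age and adapted for 1 week. The Con group (n = 6) stayed sedentary in the same room, and the Exe group (n = 6) was trained by treadmill running of moderate intensity, in daily sessions of 60 min on 5 days of each of 6 weeks. The labels and methods name no transgene and no agent in either group. After saline perfusion the livers were collected no later than 24 h from the final session, and the study's methods state that principal component analysis was used to exclude outliers. Each value is an FPKM, the fragments mapped to a gene per kilobase of transcript and scaled to the mapped fragments of the sample, so levels can be compared between genes per length.

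Lysine acetylation neutralises a positive charge on a protein, which loosens chromatin when it happens on histone tails and alters the activity of many metabolic enzymes. Acetyltransferases take the acetyl group from acetyl-CoA, the zinc-dependent histone deacetylases (HDACs) remove it by hydrolysis, and sirtuins remove it while consuming NAD+, so that both sides of the reaction are tied to fuel metabolism. In liver, mitochondrial sirtuins act on enzymes of fatty acid oxidation and the urea cycle. Class I HDACs such as Hdac3 work inside corepressor complexes that repress genes of lipid synthesis. The comparison addresses whether the transcripts of these enzymes differed between exercised and sedentary livers, in a study that also measured protein acetylation.

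The promoter windows of 4 members are shown as a description, and no result was tested against them. Hdac11 is the member with the smallest p-value in the limma comparison of groups, and Nampt had the largest difference in the higher direction. Sirt3 and Bloc1s1 had the highest levels. These 4 were picked after the values were seen. Each window runs from 250 bases before to 50 bases after the RefSeq start site, read 5′ to 3′ on the gene's strand in build GRCm38.p6. Hdac11 lies at chr6:91156565-91156864 on the plus strand, Sirt3 at chr7:140881820-140882119 on the minus strand, Bloc1s1 at chr10:128923475-128923774 on the minus strand and Nampt at chr12:32820085-32820384 on the plus strand. Capitals mark the GC box (GGGCGG), the CCAAT box (CCAAT), the E-box (CACGTG) and the NRF1 motif (TGCGCATG), each searched on both strands, with no motif contained in another.
Hdac11: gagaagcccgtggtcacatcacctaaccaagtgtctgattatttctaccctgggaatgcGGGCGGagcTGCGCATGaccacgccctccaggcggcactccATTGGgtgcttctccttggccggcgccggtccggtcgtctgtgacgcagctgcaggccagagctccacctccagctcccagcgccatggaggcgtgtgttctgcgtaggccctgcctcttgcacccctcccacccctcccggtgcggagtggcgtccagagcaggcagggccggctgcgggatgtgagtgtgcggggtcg
Sirt3: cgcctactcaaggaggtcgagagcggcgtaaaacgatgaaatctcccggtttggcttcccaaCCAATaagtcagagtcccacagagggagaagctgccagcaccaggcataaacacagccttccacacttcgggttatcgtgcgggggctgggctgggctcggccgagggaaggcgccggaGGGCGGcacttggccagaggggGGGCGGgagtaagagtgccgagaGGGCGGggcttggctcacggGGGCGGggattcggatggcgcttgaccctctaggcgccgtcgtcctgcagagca
Bloc1s1: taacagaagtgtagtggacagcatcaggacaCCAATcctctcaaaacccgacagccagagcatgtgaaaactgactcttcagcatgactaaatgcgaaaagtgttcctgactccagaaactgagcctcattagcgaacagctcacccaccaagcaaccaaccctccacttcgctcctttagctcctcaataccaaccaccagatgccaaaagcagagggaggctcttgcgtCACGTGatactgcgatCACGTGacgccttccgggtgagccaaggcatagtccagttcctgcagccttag
Nampt: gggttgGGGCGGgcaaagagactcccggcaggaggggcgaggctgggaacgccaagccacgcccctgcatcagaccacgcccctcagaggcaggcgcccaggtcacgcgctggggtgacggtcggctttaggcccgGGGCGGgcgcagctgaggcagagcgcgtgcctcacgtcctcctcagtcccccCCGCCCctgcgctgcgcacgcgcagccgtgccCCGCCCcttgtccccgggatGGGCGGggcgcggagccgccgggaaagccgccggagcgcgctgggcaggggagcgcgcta

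Nampt held 5 GC boxes and the Sirt3 window 4, while Bloc1s1 held none but carried 2 E-boxes near the start site, the sequence bound by the clock factors and by other bHLH proteins. A further RefSeq window of Sirt3 held none of the 4 motifs. The Hdac11 window held 1 GC box, 1 CCAAT box and 1 NRF1 motif. RefSeq had promoter windows for 28 of the 34 members, 38 windows in all. No entry was matched for Hdac1, Hdac3, Hdac10, Kat6a, Ncoa3 and Elp3. The members' windows had a median GC content of 60.8% against 52.7% over all 32851 windows, and a median ratio of observed to expected CpG dinucleotides of 0.792 against 0.384. A GC box occurred in 57.9% of the members' windows and 35.7% of all windows, an E-box in 13.2% against 7.15%, a CCAAT box in 39.5% against 37.4% and the NRF1 motif in 2.63% against 2.12%. The 5 windows with an E-box belonged to Bloc1s1, Hat1, Hdac5, Kat5 and Sirt1. These are matches of letters in a short window and a description only. The members were not compared with windows of like GC content or with those of tested genes only.

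Sums of FPKM ran from 735200 to 820107 per mouse, and Spearman correlations between mice over all genes from 0.981 to 0.987. The number of reads is unknown, and the relative depth estimated from the steps of 22 low genes differed little, from 0.990 to 1.03. The 6 hepatocyte markers together ranged from 52225 to 75374 FPKM, which fits the tissue label. The mouse Exe 5 had the highest summed markers of red blood cells (1290 FPKM), stellate cells, B and plasma cells, T cells, neutrophils and pancreatic acinar cells. A tested gene was one with at least 1 FPKM in at least 6 of the 12 mice, which kept 10241 genes. Each sample is 1 mouse according to the methods, and no cage or batch is given.

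The machinery was transcribed in every liver, at levels that differed widely between members, and no member passed the adjusted threshold between Exe and Con. By mean level, 14 members stood at 10 FPKM or more, 15 between 2 and 10 FPKM and 5 under 2 FPKM, and none was at 0 in any mouse. The 34 members had a median level of 6.46 FPKM, against 7.81 FPKM over all genes tested. Hdac9 alone was below the filter on low values, so that 33 members entered the comparison. All members are shown by mouse in the plot of levels.

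**Figure D1:**
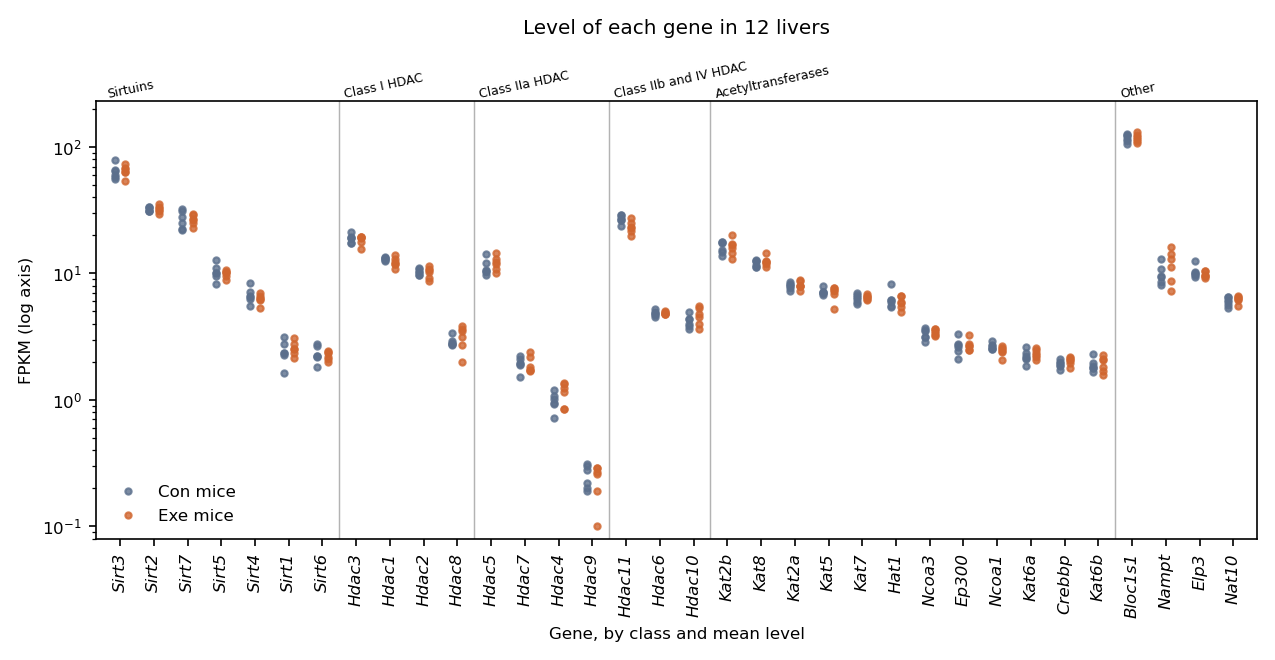
Level of each of the 34 genes in FPKM on a log axis, 1 point per mouse, with 6 Con mice (blue) and 6 Exe mice (orange) side by side and genes ordered by class and mean level. Bloc1s1 and Sirt3 lie highest, Hdac9 lies lowest, and the blue and orange points of every gene overlap.

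Among the 33 members tested, 20 were higher and 13 lower in Exe, and the median difference was 0.01 on the log2(FPKM + 1) scale, against 0.02 over all genes tested. No member passed an adjusted p of 0.05 in limma with Benjamini-Hochberg adjustment over all 10241 genes, against 0% of all genes. The smallest limma adjusted p of a member was 0.793. The study's own test of these livers, DESeq with a fold-change cutoff, did call genes, so the 0% holds only for limma on FPKM. At an unadjusted p of 0.05, 1 member was called (3.03%), against 6.21% of all genes. That member, Hdac11, was lower in Exe, and 1.94% of all genes were called lower against 4.27% called higher, where 0 members stood. The groups overlapped in all 33 members, while 0.254% of all genes had groups that did not overlap. Because the tissue is bulk liver, fewer cells of a type and less RNA per cell cannot be told apart.

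For 32 of the 33 members the whole 95% interval of the difference lay inside 0.5 on the log2(FPKM + 1) scale in either direction. The same held for 91.9% of all genes. The exception was Nampt, whose interval reached 0.56. The pseudocount of 1 shrinks differences of low genes, and with a pseudocount of 0.1 the number of members inside was 31. Standard errors ran from 0.05 to 0.17 with a median of 0.07. Within groups the members had a median SD of 0.12 on the log2 scale, against 0.14 for all genes, and the median coefficient of variation of FPKM was 10.8% in Con and 8.74% in Exe. Hdac6 varied least of the members, from 4.53 to 5.23 FPKM over the 12 mice, and its within-group SD was at the 0.186th percentile of all genes tested. Nampt varied most, with an SD at the 93.0th percentile and a highest mouse 2.22 times the lowest.

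**Figure D2:**
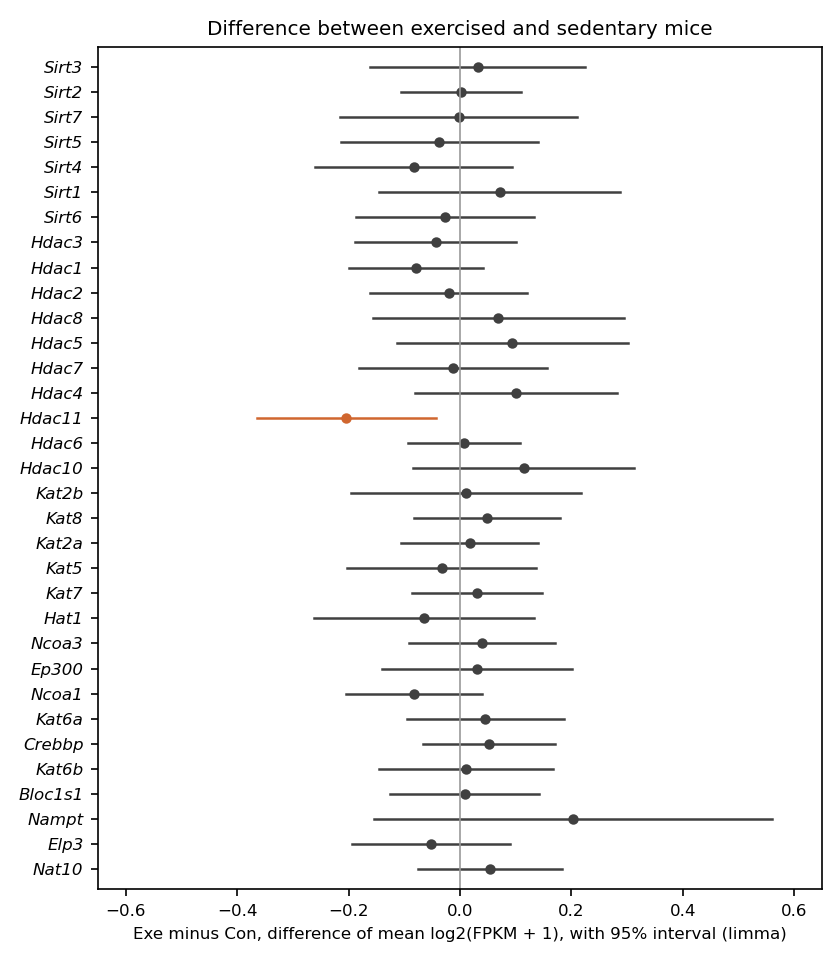
Difference between Exe and Con in mean log2(FPKM + 1) for the 33 genes tested, with points for the estimate and bars for the 95% interval from limma; orange marks an unadjusted p under 0.05. The Hdac11 interval, at the negative side, is the only one that leaves out 0, and the Nampt interval is the widest.

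The 7 sirtuins are NAD+-dependent deacylases that differ in where they act: Sirt1, Sirt6 and Sirt7 mainly in the nucleus, Sirt2 in the cytosol, and Sirt3, Sirt4 and Sirt5 in mitochondria. Summed over the family the level was 134.74 to 157.39 FPKM in Con and 128.02 to 154.85 FPKM in Exe. Sirt3, the main deacetylase of the mitochondrial matrix, made up 44.3% of that sum on average, between 39.2% and 49.9% by mouse. It was above Sirt2, the next gene, in 12 of 12 mice with ranges that did not overlap, at 64.2 against 32.4 FPKM on average.

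Sirt3 (NCBI gene 64384) ranged from 55.27 to 78.50 FPKM in Con with a median of 62.07, and from 53.68 to 73.84 FPKM in Exe with a median of 65.25. The groups overlapped almost wholly, with the lowest mouse, Exe 5, and the highest, Con 5, in opposite groups. The difference was 0.03 on the log2 scale (SE 0.09, limma adjusted p = 0.975). In the GRCm38 annotation 8.82% of the Sirt3 exon bases overlap Psmd13, a proteasome subunit gene on the opposite strand with a mean of 43.2 FPKM, and whether strand was used in counting is not given in the sources used here.

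Below Sirt3 the order of means was Sirt2, Sirt7 (26.7 FPKM), Sirt5 (10.1), Sirt4 (6.50), Sirt1 (2.49) and Sirt6 (2.28). Sirt2, a tubulin and histone deacetylase, was above Sirt7 in 11 of 12 mice, and Sirt5, which removes succinyl and malonyl groups, was above Sirt4 in 12 of 12 mice although their ranges over all mice overlapped. Sirt1, the nuclear deacetylase of PGC-1α and FOXO factors, and Sirt6, a histone H3 deacetylase, are neighbours whose ranges overlapped, with Sirt1 above in 9 of 12 mice. Sirt1 made up 1.73% of the summed sirtuin FPKM on average and Sirt6 1.59%.

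Sirt4, a mitochondrial ADP-ribosyltransferase and lipoamidase, had the largest difference in size among the sirtuins on this scale, although with a pseudocount of 0.1 Sirt1 did (0.10 against -0.09). Its Con mice ranged from 5.51 to 8.34 FPKM with a median of 6.55, and its Exe mice from 5.36 to 6.96 FPKM with a median of 6.30. Only 1 Exe mouse lay below every Con mouse, and the difference of -0.08 on the log2 scale (SE 0.08) had a limma adjusted p of 0.931. The other differences ran from -0.04 for Sirt5 to 0.07 for Sirt1. Sirt2 was nearly level between the groups, with a difference of 0.002 and a 95% interval from -0.10 to 0.11 on the log2 scale.

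The class I HDACs were ordered Hdac3, Hdac1, Hdac2 and Hdac8 by mean level, at 18.7, 12.7, 10.2 and 3.03 FPKM. Hdac3 works in the NCoR and SMRT complex, Hdac1 and Hdac2 are close paralogs that share the Sin3, NuRD and CoREST complexes, and Hdac8 deacetylates cohesin. Each gene was above the next in 12 of 12 mice, and only the ranges of Hdac1 and Hdac2 overlapped.

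Hdac3 (NCBI gene 15183) ranged from 17.41 to 21.32 FPKM in Con with a median of 19.15, and from 15.61 to 19.50 FPKM in Exe with a median of 19.20. The medians almost coincided, and the difference was -0.04 on the log2 scale (SE 0.07, limma adjusted p = 0.958). Hdac1 had the largest difference of the class in size. Its Con mice kept within 12.54 and 13.36 FPKM with a median of 13.11, whereas its Exe mice spread from 10.92 to 13.93 FPKM with a median of 12.13. In Exe, 4 mice lay below every Con mouse and 1 above every Con mouse. The difference was -0.08 on the log2 scale (SE 0.06), with a limma adjusted p of 0.908. Hdac8 also spread more in Exe, from 2.0 to 3.85 FPKM against 2.73 to 3.41 FPKM in Con, with 3 Exe mice above and 2 below every Con mouse. Its difference was 0.07 on the log2 scale, with a 95% interval from -0.16 to 0.29.

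Class IIa HDACs shuttle between cytoplasm and nucleus under control of phosphorylation and act mainly as scaffolds for Hdac3. Hdac5 accounted for 78.2% of the class's summed FPKM, at a mean of 11.7 FPKM, followed by Hdac7 at 1.93, Hdac4 at 1.06 and Hdac9 at 0.242 FPKM. Each was above the next in 12 of 12 mice with ranges that did not overlap.

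Hdac5 (NCBI gene 15184) ranged from 9.70 to 14.23 FPKM in Con with a median of 10.63, and from 10.08 to 14.45 FPKM in Exe with a median of 12.10. The ranges nearly coincided, and the difference was 0.09 on the log2 scale (SE 0.10, limma adjusted p = 0.932). Hdac4 had the largest difference of the class. It ranged from 0.72 to 1.19 FPKM in Con with a median of 0.985, and from 0.84 to 1.36 FPKM in Exe with a median of 1.21. In Exe, 3 mice exceeded every Con mouse, and the difference was 0.10 on the log2(FPKM + 1) scale (SE 0.08, limma adjusted p = 0.929). At this low level the pseudocount of 1 shrinks the difference, which was 0.18 with a pseudocount of 0.1. Hdac9, below the filter, ranged from 0.19 to 0.31 FPKM in Con and from 0.10 to 0.29 FPKM in Exe, and the two-sided exact permutation test of log2(FPKM + 1) gave p = 0.693.

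In classes IIb and IV the level was carried by Hdac11, the single class IV enzyme and a long-chain fatty deacylase, with 72.9% of the summed FPKM at a mean of 25.1 FPKM. Its mean FPKM was above that of every class I and class IIa gene. Hdac6, the cytosolic tubulin deacetylase, had a mean of 4.85 FPKM and Hdac10, a polyamine deacetylase, 4.41 FPKM. Hdac6 was above Hdac10 in 9 of 12 mice, and their ranges overlapped.

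Hdac11 (NCBI gene 232232) measured 29.22, 26.35, 26.40, 27.26, 28.78 and 23.74 FPKM in Con 1 to Con 6, with a median of 26.83. In Exe 1 to Exe 6 it measured 23.15, 19.78, 25.07, 27.27, 21.70 and 22.98 FPKM, with a median of 23.07. Of the Exe mice, 4 lay below every Con mouse, while Exe 4 reached the middle of the Con range, so the groups overlapped. The means were 27.0 ± 1.98 FPKM in Con and 23.3 ± 2.61 FPKM in Exe (SD, n = 6 each). On the log2 scale the difference was -0.20 (SE 0.07, 95% interval -0.37 to -0.04). In limma p was 0.0164 before adjustment and 0.793 after it, and the two-sided exact permutation test gave p = 0.0303, so it did not pass over all genes. Leaving out Con 1 and Exe 5 together, the mice with the highest acute-phase scores (a measure described further on), gave -0.16 with an unadjusted limma p of 0.0733, and Hdac10 was then the 1 member with an unadjusted p under 0.05. In the GRCm38 annotation 22.4% of the Hdac11 exon bases overlap Gm44002, an annotated gene on the opposite strand that was not analysed here.

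Hdac10 ranged from 3.63 to 4.97 FPKM in Con and from 3.62 to 5.56 FPKM in Exe. Its difference was 0.11 on the log2 scale, with a 95% interval from -0.09 to 0.31. Hdac6 was among the most even genes of the liver, with a difference of 0.01 on the same scale and an interval from -0.09 to 0.11.

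**Figure D3:**
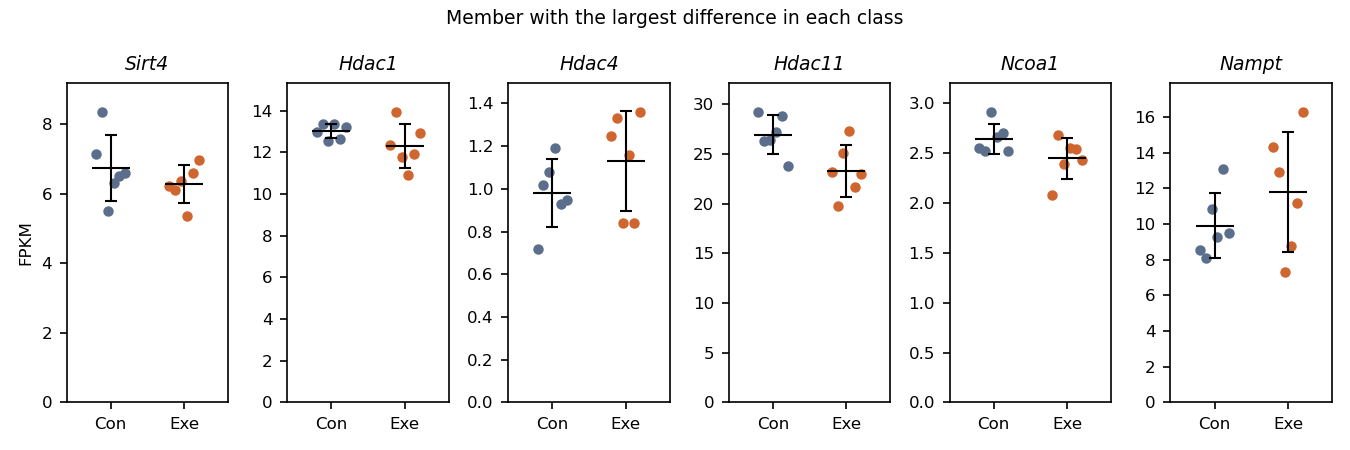
FPKM by mouse for the gene with the largest difference in each of the 6 classes, with 1 point per mouse, a horizontal line at the group mean and bars of 1 SD (n = 6 per group); each axis starts at 0. The Hdac11 means are 27.0 in Con and 23.3 in Exe, and in every panel the points of the groups overlap.

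The 12 acetyltransferases comprised the GCN5 family (Kat2a, Kat2b), the p300 and CBP coactivators (Ep300, Crebbp), the MYST family (Kat5, Kat6a, Kat6b, Kat7, Kat8), the nuclear receptor coactivators Ncoa1 and Ncoa3, and Hat1, which acetylates newly made histone H4. Together they summed to 68.42 to 72.79 FPKM in Con and 66.54 to 77.72 FPKM in Exe, below the summed sirtuins in every mouse. Kat2b (PCAF) led at 16.2 FPKM, followed by Kat8 (MOF, the histone H4 lysine enzyme of the MSL and NSL complexes) at 12.2 FPKM and Kat2a (GCN5) at 8.04 FPKM. Kat5 (TIP60) at 7.09, Kat7 (HBO1) at 6.42 and Hat1 at 6.06 FPKM formed a middle group, where Kat7 was above Hat1 in 9 of 12 mice.

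The large coactivators were low per length. Ncoa3 stood at 3.37 FPKM, Ep300 at 2.69, Ncoa1 at 2.54, Kat6a at 2.26, Crebbp at 1.98 and Kat6b at 1.90 FPKM. Each of these neighbours had ranges that overlapped. Ep300 was above Ncoa1 in 7 of 12 mice and Crebbp above Kat6b in 8 of 12, so those orders did not hold beyond the spread between mice.

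Kat2b (NCBI gene 18519) ranged from 13.80 to 17.73 FPKM in Con with a median of 16.28, and from 13.03 to 20.21 FPKM in Exe with a median of 16.37. Its group means were nearly equal, with a difference of 0.01 on the log2 scale (SE 0.10, limma adjusted p = 0.994). Ncoa1, the steroid receptor coactivator SRC-1, had the largest difference of the class. It ranged from 2.52 to 2.91 FPKM in Con with a median of 2.61, and from 2.08 to 2.68 FPKM in Exe with a median of 2.49. In Exe, 3 mice lay below every Con mouse, and the difference was -0.08 on the log2 scale (SE 0.06, limma adjusted p = 0.900). Of the 12 genes 9 had a higher value in Exe, with differences of at most 0.05, and none passed the unadjusted threshold. In the GRCm38 annotation 18.9% of the Kat5 exon bases overlap Rnaseh2c, a ribonuclease subunit gene on the opposite strand with a mean of 58.9 FPKM.

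Of the remaining 4 genes, Bloc1s1 (GCN5L1), a subunit of lysosome-related complexes that is also linked to mitochondrial protein acetylation, had the highest level of all members. Bloc1s1 (NCBI gene 14533) ranged from 106.22 to 127.32 FPKM in Con with a median of 118.98, and from 107.98 to 130.32 FPKM in Exe with a median of 118.19. The groups overlapped almost wholly, and the difference was 0.01 on the log2 scale (SE 0.06, limma adjusted p = 0.993). Bloc1s1 shares 28.1% of its annotated exon bases with Rdh5, a retinol dehydrogenase gene on the same strand with a mean of 14.9 FPKM, so that reads in the shared part could be assigned to either.

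Nampt, the rate-limiting enzyme of NAD+ salvage and so a source of the sirtuins' cosubstrate, had the largest difference of all members in the higher direction with all 12 mice. Nampt (NCBI gene 59027) measured 8.55, 8.09, 10.81, 9.29, 13.09 and 9.50 FPKM in Con 1 to Con 6, with a median of 9.40. In Exe 1 to Exe 6 it measured 14.30, 12.92, 7.32, 8.76, 11.16 and 16.27 FPKM, with a median of 12.04. The Exe mice spread to both sides of the Con mice, with 2 above all of them and 1, Exe 3, below all of them. The difference was 0.20 on the log2 scale (SE 0.17, 95% interval -0.15 to 0.56), with a limma p of 0.242 before adjustment and 0.929 after it. Without Exe 3 the difference was 0.32 with an unadjusted limma p of 0.0484, which stayed at 0.769 after adjustment, and without Exe 6 it was 0.11 with an unadjusted limma p of 0.507.

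Elp3, the catalytic subunit of Elongator, and Nat10, which acetylates cytidine in RNA, had means of 10.1 and 6.13 FPKM. Their differences were -0.05 and 0.05 on the log2 scale. Nampt and Elp3 are neighbours in level, with Nampt above in only 5 of 12 mice although its mean was higher.

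Ratios within a mouse were compared for 10 pairs of paralogs or class partners. The ratio of FPKM does not depend on the scaling between mice, while the tested log2 ratio of FPKM + 1 depends on it somewhat for low genes. Kat2b exceeded Kat2a, Hdac5 exceeded Hdac4, Sirt3 exceeded Sirt2, Sirt7 exceeded Sirt6 and Kat8 exceeded Kat5 in 12 of 12 mice, and Hdac1 exceeded Hdac2 and Ep300 exceeded Crebbp in 12 of 12 as well. The Hdac1 to Hdac2 ratio ranged from 1.01 to 1.47, so that both paralogs were present in similar amounts, whereas the Hdac4 to Hdac5 ratio stayed between 0.0700 and 0.124. None of the 10 ratios passed the test between groups. The smallest two-sided exact permutation p was 0.104, for Ncoa1 over Ncoa3, where the difference between Exe and Con in the log2 ratio of FPKM + 1 was -0.12, and the p adjusted over the 10 pairs was 0.952.

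**Figure D4:**
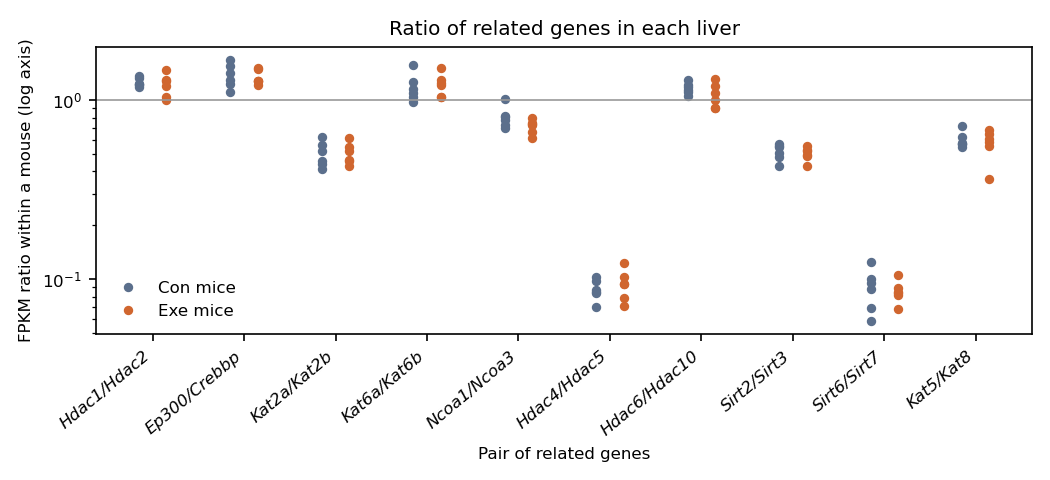
FPKM ratio of the first gene to the second for 10 pairs of related genes, on a log axis with 1 point per mouse, 6 Con (blue) and 6 Exe (orange); the grey line marks a ratio of 1. The Hdac4 to Hdac5 and Sirt6 to Sirt7 ratios lie lowest, and Con and Exe points overlap in every pair.

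The variation between mice was also set beside a pair of programs known to vary in mouse liver. The acute-phase score is the mean log2(FPKM + 1) of 19 inflammation-induced liver genes such as Saa1, Saa2, Orm1 and Hp. The clock index is the mean of 10 evening-phase genes minus that of 5 morning-phase genes. The score ranged from 7.08 to 9.998 in Con and from 7.43 to 10.18 in Exe (two-sided exact permutation p = 0.569), and the index from 0.53 to 1.78 in Con and from -0.09 to 1.44 in Exe (exact permutation p = 0.180). A member was tested with limma over all genes, and 66 member correlations were computed.

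Sirt3 tended to be lower in livers with a higher acute-phase score. The 4 mice with the lowest Sirt3, Exe 5, Con 1, Con 2 and Con 6 at 53.68 to 59.84 FPKM, were among the 5 with the highest scores, and the 4 mice with the lowest scores, Con 4, Exe 4, Con 5 and Exe 2, had 65.78 to 78.50 FPKM. Pearson's r was -0.842 (permutation p = 0.00058) and Spearman's rho -0.825 (permutation p = 0.00163) over 12 mice. Without Con 4 and Exe 5, the mice farthest from the median score, r was -0.880. Within groups r was -0.786 in Con (exact permutation p = 0.0542) and -0.920 in Exe (exact permutation p = 0.0194).

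Over all genes this relation just missed the threshold. The slope for Sirt3 was -0.13 log2 units per unit of score (SE 0.03), with a limma p of 0.000487 and an adjusted p of 0.0502, and 0.771% of all genes had a correlation at least as strong. With 1 mouse left out, the relation passed only without Con 3 (limma adjusted p = 0.0472) and without Con 4 (limma adjusted p = 0.0208). Without any other single mouse it did not pass, with limma adjusted p from 0.058 without Exe 3 to 0.152 without Con 1. It did not pass on ranks or on a TPM scale either (limma adjusted p = 0.0838 on the TPM scale). With quantile normalization r was -0.689 (limma adjusted p = 0.168), and without Con 1 and Exe 5 r was -0.720 (limma adjusted p = 0.494). The acute-phase genes took up between 1.88% and 7.82% of a mouse's summed FPKM, and the median r with the score over all genes moved with level, from -0.02 for genes under 10 FPKM to -0.18 for genes from 10 to 50 FPKM and -0.38 for genes over 50 FPKM, where Sirt3 lies. The part of this shift in the Sirt3 relation was not tested.

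Of the other members, Kat8 (r = -0.721), Ncoa3 (r = -0.715) and Hdac4 (r = -0.633) passed the unadjusted limma threshold with the score, each in the same direction, with limma adjusted p of 0.211, 0.268 and 0.239. Their rho values were -0.748, -0.739 and -0.578, with permutation p from 0.0069 to 0.0542, and without Con 4 and Exe 5 their r was -0.733, -0.654 and -0.559. Sirt2 had r = -0.727 (permutation p = 0.00809) and rho = -0.746 (permutation p = 0.00733), with r = -0.609 without Con 4 and Exe 5, and its unadjusted limma p lay just over the threshold of 0.05 (limma adjusted p = 0.298). With Sirt3, 4 of 33 members (12.1%) passed it, against 16.7% of all genes, and 0 members against 0.908% of all genes at the adjusted threshold. Of the 33 members 21 had a negative r, against 59.4% of all genes. With quantile normalization r was -0.473 for Sirt2 and -0.617 for Kat8, and both then missed the unadjusted limma threshold. With 1 mouse left out, Kat8 missed that threshold without Con 1 (r = -0.669) and without Exe 4 (r = -0.744). Sirt2 passed it without Exe 4 (r = -0.826).

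With the clock index, Hdac5 tended to be lower in livers with a higher index (r = -0.659, permutation p = 0.020, rho = -0.636, permutation p = 0.0289, and r = -0.689 without Exe 3 and Exe 6, the mice farthest from the median). Within groups r was -0.903 in Con (exact permutation p = 0.0319) and -0.453 in Exe (exact permutation p = 0.351). Hdac2 tended to be higher with the index at r = 0.658 (permutation p = 0.0207) and rho = 0.249 (permutation p = 0.434), but without Exe 3 and Exe 6 its r was -0.006, so the relation rests on those 2 mice. Nat10 tended to be lower with a higher index, at r = -0.654 (permutation p = 0.0199) and rho = -0.776 (permutation p = 0.00447), and r was -0.678 without those 2 mice. Its limma p was 0.0536 before adjustment and 0.847 after it. Hdac5 and Hdac2, 2 members (6.06%), passed the unadjusted limma threshold against 5.93% of all genes, and 0 members passed the adjusted one against 0.0488% of all genes. The limma adjusted p of Hdac5 was 0.675. Nampt, a known clock target, had an r of 0.0905 and a rho of 0.217 with the index (permutation p of 0.778 and 0.498).

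**Figure D5:**
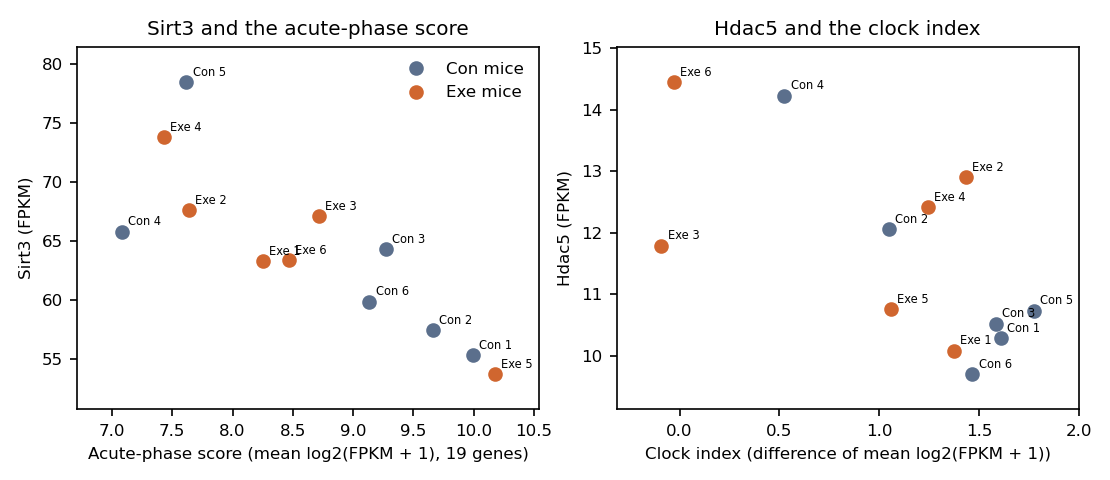
Left, Sirt3 FPKM against the acute-phase score; right, Hdac5 FPKM against the clock index; each point is 1 of 12 mice, named by group and replicate, with Con in blue and Exe in orange. The Sirt3 points run from upper left to lower right in both groups (r = -0.842), and Hdac5 tends to be lower where the index is higher (r = -0.659).

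Other genes of acetylation and NAD+ metabolism, in 8 lists beside the members, gave 0 genes at an adjusted p of 0.05, and those at an unadjusted p of 0.05 were all higher in Exe. Over all genes 68.7% of such calls were higher, a share that was 88.1% on a TPM scale and 56.4% with quantile normalization. The lists of HDAC corepressor partners (30 genes tested), acetyl-lysine readers (25) and other acetyltransferases (14) held no gene at the unadjusted threshold. Among 44 tested subunits of acetyltransferase complexes there were 3: Tada1 of the SAGA complex, Morf4l2 of the NuA4 complex and Elp5 of Elongator, with differences of 0.15, 0.21 and 0.11 on the log2 scale and limma adjusted p of 0.793 to 0.799. Over all genes 6.21% were at that threshold.

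In the list of acetyl-CoA supply 2 of 20 tested genes were at the unadjusted threshold, against 6.21% of all genes. Acly, ATP citrate lyase, which makes cytosolic acetyl-CoA from citrate, ranged from 48.40 to 59.74 FPKM in Con with a median of 57.14, and from 59.81 to 119.12 FPKM in Exe with a median of 69.58. Every Exe mouse was above every Con mouse, but the highest Con mouse (59.74 FPKM) and the lowest Exe mouse (59.81 FPKM) almost met. Groups did not overlap in 0.254% of all genes. The difference was 0.44 on the log2 scale (SE 0.13), and the limma adjusted p was 0.789. Acss2, which makes acetyl-CoA from acetate, averaged 82.7 ± 15.4 FPKM in Con and 101 ± 15.3 FPKM in Exe (SD, n = 6 each), a difference of 0.29 (SE 0.12, limma adjusted p = 0.793).

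Of 22 tested genes of NAD+ synthesis and use, only Nnt, the mitochondrial transhydrogenase, was at the unadjusted threshold, which 6.21% of all genes met, with a difference of 0.16 on the log2 scale (limma adjusted p = 0.793). Among 23 tested textbook sirtuin substrates, Cps1, the first enzyme of the urea cycle and a substrate of Sirt5, averaged 542 FPKM in Con and 663 FPKM in Exe, a difference of 0.29 (SE 0.09, limma adjusted p = 0.777), and Aldh2 had a difference of 0.14 (limma adjusted p = 0.799). Acss2, also a sirtuin substrate, made 3 of 23 at the unadjusted threshold in that list, against 6.21% of all genes. Of 20 tested genes for acetylated proteins the study names, 3 were at the unadjusted threshold, against 6.21% of all genes: Cyp4a10, Adh5 and Acox2, with differences of 1.17, 0.14 and 0.21 and limma adjusted p of 0.580, 0.793 and 0.793. That list was drawn from results on these mice and is not independent evidence. Cyp4a10 was called higher in Exe by the study's own transcript test, DESeq with a Q-value threshold. The study also reported its protein as higher. Adh5, an alcohol dehydrogenase, had groups that did not overlap, from 233.82 to 257.33 FPKM in Con and from 260.06 to 277.53 FPKM in Exe.

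Of the 34 members, 4 share a start region with a gene on the opposite strand within 1000 bases in the GRCm38 annotation, a search chosen after the values were seen: Sirt1 with Dnajc12, Sirt2 with Nfkbib, Sirt3 with Psmd13 and Sirt6 with Ankrd24. All 4 are sirtuins, but whether this family differs from other genes in this was not tested. Over the 10241 genes tested there were 685 such pairs. The start sites of Sirt3 and Psmd13 lie 341 bases apart. Over the 12 mice their levels gave r = -0.432, with r of -0.400 for Sirt2, -0.470 for Sirt1 and 0.469 for Sirt6 with their neighbours. None passed a permutation test of r, with p from 0.125 to 0.195 and 0.195 for each after adjustment over the 4 pairs. By rank the pair of Sirt6 and Ankrd24 gave rho = 0.657 (permutation p = 0.0232 before adjustment). Over all 685 such pairs of tested genes the median r was 0.149.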

How the data were processed

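Total RNA of whole liver was sequenced as paired ends on the DNBseq platform by the authors, who removed adapters and low-quality reads and aligned the rest to the mouse genome with HISAT. The submitters' processing notes name HISAT, Bowtie2, GRCm39 and mm10 without their roles or versions. The authors deposited 1 table per mouse with FPKM per gene, and the quantifier and use of strand are not given in the sources used here. From the deposited FPKM values, log2(FPKM + 1) was fitted with limma 3.58.1 (lmFit and eBayes with trend, R 4.3.3) on the 10241 genes with at least 1 FPKM in at least 6 mice, group being the only term, with Benjamini-Hochberg adjustment over all of them. The code was tested on simulated data. Count models were not used, since the files hold no counts.

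Exact permutation tests between groups were two-sided and enumerated every division of the 12 mice. For correlations within a group they enumerated every order of its 6 mice. For pairs with the replicate block they enumerated every choice of signs of the differences between mice with the same number. Correlations over the 12 mice used 100000 resamples (Python 3.11.15, scipy 1.17.1). The adjustment planned over the 66 member correlations was replaced by the limma fit over all genes, because the members were chosen with earlier results of these data known, as were the lists. Full values were given, by rule, for members with an unadjusted p under 0.05 or groups that do not overlap, and for the highest level and the largest difference in each class; in related lists, for genes with an unadjusted p under 0.05. The alternatives were a TPM scale, quantile normalization, a pseudocount of 0.1, no filter or a filter of 5 FPKM, robust eBayes, a replicate block, leaving out each mouse, and leaving out Con 1 and Exe 5. For correlations, quantile normalization and leaving out Con 1 and Exe 5 were chosen after seeing the data. Promoter windows came from RefSeq (GRCm38.p6), and gene overlaps from GENCODE M21 (GRCm38).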

Additional observations from a re-analysis of the deposited data

Results flagged for a closer look

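Within groups of 6 mice, 7 of 68 sets of values had a mouse apart from the others by Dixon's ratio, the gap to the nearest mouse divided by the group's range, where about 3.4 are reached by chance. In Con, Hat1 stood at 8.24 FPKM in Con 1 against 5.47 to 6.17 FPKM in the other mice (ratio 0.747), and Hdac8 at 3.41 FPKM in Con 2 against 2.73 to 2.94 FPKM (0.691). Elp3 stood at 12.46 FPKM in Con 3 against 9.29 to 10.29 FPKM (0.685), and Kat5 at 8.02 FPKM in Con 6 against 6.75 to 7.17 FPKM (0.669). The remaining 3 were in the mouse Exe 4. There Kat5 was lowest, at 5.26 FPKM against 6.86 to 7.69 FPKM in the other Exe mice (0.658). Ep300 was highest, at 3.26 FPKM against 2.48 to 2.76 FPKM (0.641), and so was Kat8, at 14.47 FPKM against 11.33 to 12.47 FPKM (0.637). Exe 4 therefore had the lowest Kat5 to Kat8 ratio of the 12 mice, 0.364.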

How the results depend on the processing

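No member passed an adjusted p of 0.05 in limma under any of the 20 alternatives, and 748 of 752 recomputed values stayed within the replicate spread or, for counts, within 1.5 times the count. With 1 mouse left out, the members at an unadjusted p of 0.05 numbered 1 to 2, with Hdac1 added without Exe 2 and Nampt without Exe 3, and the correlations past the adjusted threshold 0 to 1, which was Sirt3 without Con 3 or Con 4. Hdac11 had a log2 difference from -0.25 to -0.16 and an unadjusted p from 0.00357 to 0.0733. Nampt had a log2 difference from 0.11 to 0.32 and an unadjusted p from 0.0484 to 0.507. The members' median difference was 0.046 on a TPM scale, where that of all genes was 0.048, and 0.005 with quantile normalization, as over all genes. Which gene differed most in a class changed with the setting except for Nampt: on a TPM scale it was Sirt1, Hdac8, Hdac5 and Kat8 in place of Sirt4, Hdac1, Hdac4 and Ncoa1, and without Con 1 and Exe 5 Hdac10 in place of Hdac11. Signs of the uncalled differences turned in 59 of 647 refits, and 16 members kept their sign throughout. The filter of 5 FPKM left 20 members. Mice with the same number did not deviate together (correlations -0.478 to 0.165, 1 of 6 over 0.1). With the replicate block 1 member was at the unadjusted threshold (Hdac11, p = 0.0232), 0 at the adjusted one, the median difference was 0.01, 567 genes in all were at the unadjusted threshold and 0 of 10 pairs passed (smallest exact p = 0.125). Over all genes that count was 636, and 418 without Exe 2. Depth in reads is unknown, so no counting error can be given for the low genes such as Hdac9 and Hdac4, and the FPKM carry the authors' unstated choices on shared and overlapping exons.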
